A study of Mus musculus with 18 samples.

Results

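The mouse Il12b locus was described by its accessible chromatin, as 8 regions measured by ATAC-seq in bone marrow-derived macrophages. The regions were chosen by position. A region belonged to the locus when its midpoint lay in Il12b or within 50 kb of it, with Il12b as the nearest protein-coding gene body. This rule found 8 of the 53796 regions of the series. The locus itself was picked because, in these same libraries, a distal region and a region at a gene end had shown different patterns over the groups. Those 2 regions, 10 kb upstream of the gene and at its 3' end, are therefore described without a p-value, and the differences between them are not independent evidence of anything. The other 6 regions were taken by position, and their differences were read from a fit over all 53796 regions. They belong to the locus picked for that contrast, and are themselves distal or within 1 kb of a gene end. Their p-values do not account for the choice of the locus.

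Cells came from wildtype C57BL/6 mice and were grown from marrow with M-CSF. Each culture had 2 steps of 4 h, and each group is written with a letter for either step. MM received medium and then fresh medium. MC, ML, MP and MT received medium and then CpG (100 nM), LPS (1 ng/mL), polyI:C (1 µg/mL) or TNF (10 ng/mL). CL and CT received CpG first and then LPS or TNF, and PL and PT received polyI:C first and then LPS or TNF. Each of the 9 groups had 2 libraries. No group had a first stimulus followed by medium, so the effect of the first stimulus alone was not measured at the second step. CpG is a DNA ligand of TLR9, LPS a ligand of TLR4, polyI:C a double-stranded RNA sensed by TLR3 and by cytosolic receptors, and TNF a cytokine that signals through its own receptors.

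Il12b encodes p40, the subunit that IL-12 and IL-23 have in common. IL-12 pairs p40 with the product of Il12a and drives interferon-gamma production by T and NK cells, and IL-23 pairs it with the product of Il23a. Resting macrophages transcribe Il12b little, and Toll-like receptor ligands induce it through a promoter that binds the NF-kB subunit c-Rel and C/EBP factors, with an inducible enhancer upstream. In ATAC-seq a transposase cuts and tags DNA that nucleosomes leave exposed, so a higher value means more tagged DNA in a region. It does not measure transcription, and nearness does not show that a region acts on Il12b.

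The sequence just before the start site is shown because it lies between the upstream regions and the gene, and because none of the 8 regions covers it. In RefSeq (GRCm38.p6) Il12b runs on the plus strand of chromosome 11 from 44400063 to 44414677. The 250 bases before the start, chr11:44399813-44400062, read 5' to 3' on the plus strand, with 3 short matches in capitals:
Il12b upstream: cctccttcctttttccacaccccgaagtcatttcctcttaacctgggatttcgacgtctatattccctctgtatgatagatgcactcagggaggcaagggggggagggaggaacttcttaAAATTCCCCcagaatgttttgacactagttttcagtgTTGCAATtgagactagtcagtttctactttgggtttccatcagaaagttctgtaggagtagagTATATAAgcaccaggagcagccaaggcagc

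The capitals mark the NF-kB half-site AAATTCCCC, which begins 130 bases before the start. They also mark TTGCAAT, part of a C/EBP motif, at 93 bases. The last is the TATA-box string TATATAA at 30 bases. These letters were chosen after the sequence had been read. Searched on both strands, with no overlap between the matches, they occur in 0.231%, 1.96% and 3.04% of the same 250 bases of 32851 RefSeq promoters. Consensus strings for full sites had no match here on either strand. They were those of NF-kB, C/EBP, AP-1 (TGANTCA), IRF and PU.1 (GAGGAAGT), which occur in 45.8%, 36.8%, 6.75%, 2.98% and 2.44% of the promoters. A match is a string of letters and not a measured binding site.

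Each of the 8 regions spans 501 bases from start to end, so their levels can be compared with each other. Upstream of the gene were regions about 27 kb (44372824 to 44373325), 22 kb (44377802 to 44378303), 19 kb (44380636 to 44381137) and 10 kb (44389981 to 44390482) from the start site, all between genes. Another lay 1 kb upstream (44398834 to 44399335), and its near edge was 728 bases from the start site. The 3' end region (44414555 to 44415056) covered the last 123 bases of the gene, and 2 more lay 3 kb (44417330 to 44417831) and 11 kb (44425656 to 44426157) downstream of the gene. No region had its midpoint inside the gene body. By mean level over all libraries, the 10 kb region stood at percentile 94.3 of all regions, the 3' end at 84.0 and the 19 kb region at 7.45.

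**Figure D1:**
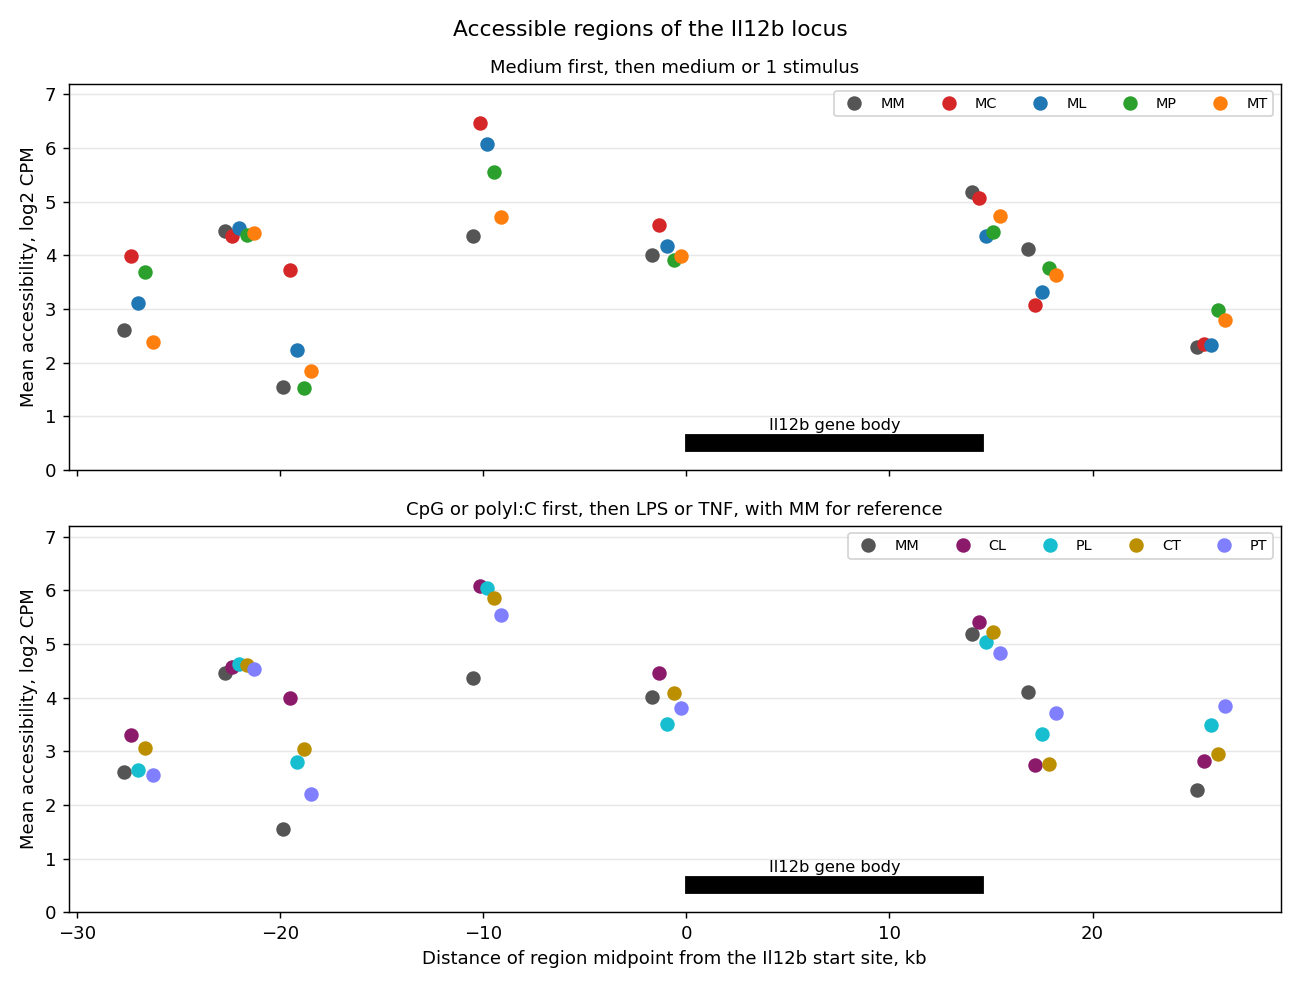
Mean accessibility (log2 CPM, n = 2 libraries a group) of the 8 Il12b regions against the distance of their midpoints from the start site in kb, for medium and single stimuli (top) and for 2 stimuli in sequence (bottom); points of a region are spread sideways for legibility and the black bar is the gene. The groups lie apart at the regions 10 kb and 19 kb upstream and close together at the one 22 kb upstream.

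Values are log2 CPM, the log2 of reads in a region, scaled to library size, with a small prior added. Differences are given on this scale as mean ± SE from limma with 2 libraries a group, and a region is called higher or lower at an adjusted p under 0.05. The prior makes differences of low regions look smaller than they are. Each library had between 3141641 and 5986835 reads in regions. At Il12b a single region held from 6 reads (19 kb upstream) to 464 reads (10 kb upstream) in a library. The labels do not say that replicates were separate cultures or animals, so a p-value covers the spread between libraries, which may be technical. The difference between the 2 MP libraries was within counting noise (chi-square per region 1.003, chi-square test p = 0.285), unlike those of the other 8 groups (1.07 in ML to 2.71 in PT). They may be 1 library rather than 2. The fit kept both, so MP values below rest on n = 2 unless stated, and each MP call at Il12b is also given with their mean as 1 sample. The PT libraries were the least alike of any pair. All 9 macrophage marker genes listed, including Csf1r and Adgre1, had accessible regions, as did 4 of 7 T cell genes. The T cell genes with regions were Cd3d, Lck, Cd4 and Cd28, at a summed level of 6.06 to 6.51 (log2 of summed CPM). Cd3e, Cd3g and Cd8a had none. Of 6 neutrophil genes 5 had a region, at a summed level of 5.53 to 6.69 (log2 of summed CPM) against 9.60 to 10.22 for the macrophage genes. The neutrophil sum was 5.77 and 5.53 in MM and 5.89 and 5.63 in MP. It was 6.22 and 6.18 in MT and 6.00 and 5.93 in PT. The groups given CpG or LPS stood at 6.55 and 6.56 in MC, 6.59 and 6.51 in ML, 6.69 and 6.56 in CL, 6.63 and 6.52 in CT and 6.25 and 6.18 in PL. Of its 5 regions limma called 1 higher in MC, 2 in ML, 1 in MP and 1 in MT. It called 3 higher in CL, 1 in PL, 2 in CT and 1 in PT. The only lower calls were 1 in MP, 1 in PL and 2 in PT. Of all regions, 17.7% were higher in MC, 15.5% in ML, 19% in MP and 6.15% in MT. The shares higher were 22.3% in CL, 23.7% in PL, 18.7% in CT and 21.7% in PT. The shares lower were 14.2% in MP, 17.4% in PL and 17.9% in PT. Elane had no region. The part of these markers in the results was not tested. Of 7 dendritic cell genes, which matter here because those cells also make IL-12, 6 had regions. Their summed level lay between 8.12 and 8.49 (log2 of summed CPM) over the 18 libraries, with the highest values in MP. Of these 21 regions limma called 7 higher and 2 lower in MC, and 6 and 6 in ML. It called 10 and 2 in MP, and 5 and 0 in MT. The counts were 8 and 6 in CL, 9 and 6 in PL, 7 and 8 in CT, and 6 and 4 in PT. Of all regions, 9.23% were lower in MC, 10.3% in ML, 0.686% in MT, 15.3% in CL and 10.9% in CT. The lowest macrophage sum, 9.60, was in PT replicate 2, against 9.98 in PT replicate 1. In PT 4 of the 61 macrophage regions were higher and 19 lower. The part of either list in the results was not tested.

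The region 10 kb upstream was the most open of the 8 on average, and its level was higher with each Toll-like receptor ligand than in medium. Its MM libraries stood at 4.46 and 4.25. The MC libraries stood at 6.50 and 6.44, the ML libraries at 6.11 and 6.03, and the MP libraries at 5.59 and 5.53. With TNF alone the values were only 4.69 and 4.72, just above medium. In CPM from the recovered whole reads, MM had 21.3 and 18.5, MC 89.8 and 86.1, and MT 25.2 and 25.8. The rule used these levels, so no test is attached to the differences from MM, which were 2.11 ± 0.12 in MC, 1.71 ± 0.12 in ML, 1.20 ± 0.12 in MP (SE 0.15 as 1 sample) and 0.35 ± 0.12 in MT.

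With 2 stimuli every library lay above those of MM and MT. The libraries stood at 6.05 and 6.11 in CL, 6.03 and 6.06 in PL, 5.84 and 5.86 in CT, and 5.43 and 5.66 in PT. In order of mean level the groups ran MC, CL, ML, PL, CT, MP, PT, MT and MM. The libraries overlapped between CL and ML, between ML and PL, and between MP and PT, and the other neighbours in this order did not overlap. Replicates were close, with a median SD of 0.045 over the groups.

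**Figure D2:**
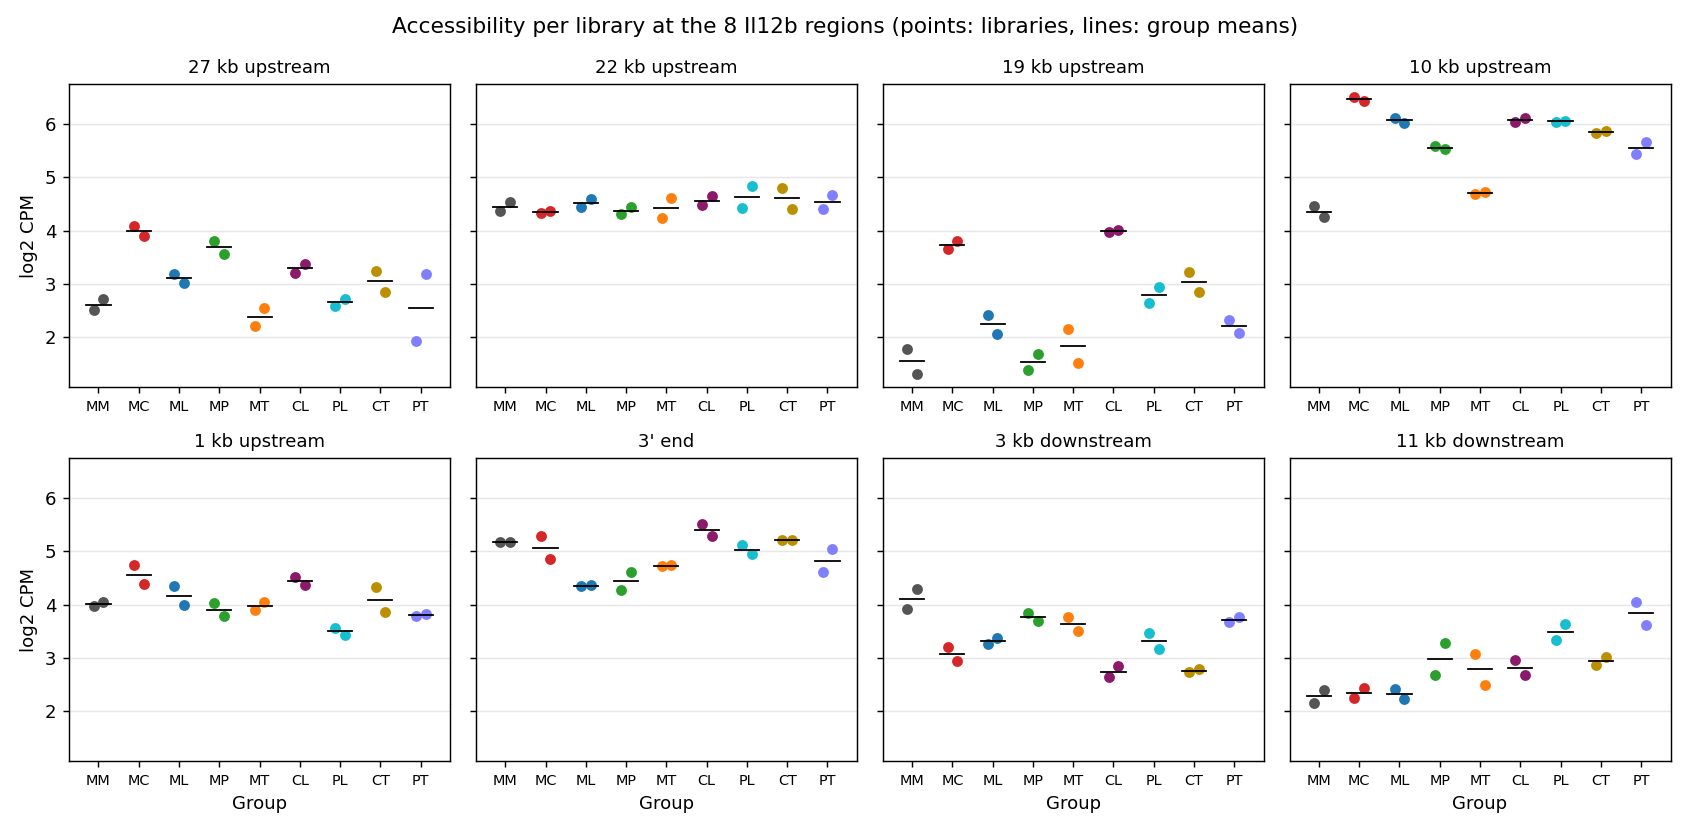
Accessibility (log2 CPM) of each library (points) and group means (lines) at the 8 Il12b regions, one panel a region, with the 9 groups on the x axis. The region 10 kb upstream ranges from 4.25 in an MM library to 6.50 in an MC library, and the one 22 kb upstream stays between 4.24 and 4.84.

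The region at the 3' end went another way. Medium cells were near the top, at 5.18 and 5.18, and MC cells stood at 5.28 and 4.86. LPS alone gave 4.35 and 4.36, polyI:C alone 4.27 and 4.62, and TNF alone 4.72 and 4.75. These ML, MP and MT libraries all lay below both MM libraries, while an MC library lay on either side of them. In the groups with 2 stimuli the libraries stood at 5.52 and 5.29 in CL, 5.11 and 4.95 in PL, 5.21 and 5.21 in CT, and 4.61 and 5.04 in PT. The groups ran CL, CT, MM, MC, PL, PT, MT, MP and ML, over a span of 1.05 in group means. Neighbours overlapped except CL with CT, CT with MM, and MT with MP.

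Within a library, the difference between the 2 regions is not changed by scaling the whole library by 1 factor. The 10 kb region lay below the 3' end in medium cells, at -0.72 and -0.93, and level with it in MT, at -0.03 in both libraries. It lay above the 3' end in the other 7 groups, by 1.22 and 1.58 in MC, 1.76 and 1.66 in ML, and 1.32 and 0.91 in MP. With 2 stimuli the differences were 0.52 and 0.82 in CL, 0.92 and 1.11 in PL, 0.62 and 0.65 in CT, and 0.82 and 0.62 in PT. The locus was chosen for this contrast, which is a description.

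The other region within 1 kb of a gene end, 1 kb upstream of the start, was also set against the 10 kb region. The 10 kb region was the more open of the 2 in all 18 libraries, by 0.49 and 0.20 in MM, 0.79 and 0.67 in MT, and 2.46 and 2.64 in PL. The remaining groups had means between 1.63 in CL and 1.91 in MC. In both comparisons MM had the lowest mean difference and MT the next. These means were -0.82 and -0.03 against the 3' end, and 0.35 and 0.73 against the region 1 kb upstream. The 10 kb region thus lay below the other region in medium cells only in the comparison with the 3' end. Both comparisons share the 10 kb region, whose levels the rule used and were themselves lowest in MM and MT. The second comparison is therefore also a description and no independent support for the first.

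**Figure D3:**
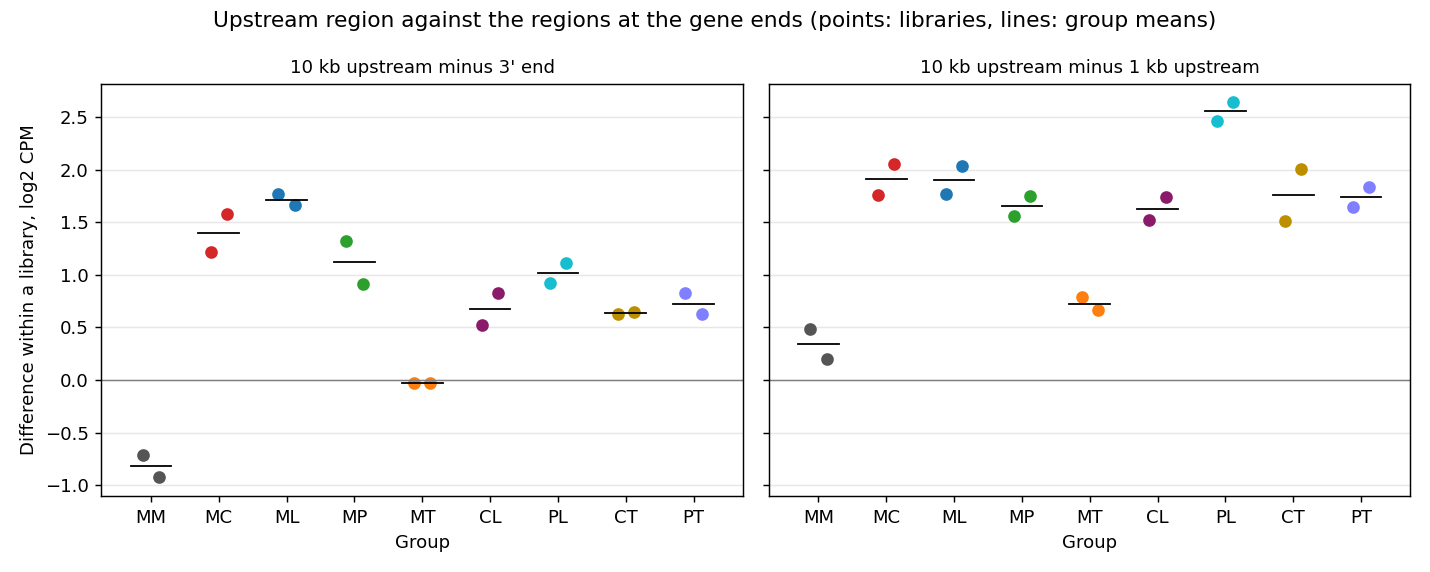
Difference in log2 CPM between the region 10 kb upstream and the 3' end (left) or the region 1 kb upstream (right) within each library (points) and group means (lines), for the 9 groups. On the left MM lies below 0 and MT at about 0, and on the right all libraries lie above 0.

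Each stimulus alone was compared with medium to ask which of the 6 regions chosen by position respond. With CpG, 3 of the 6 rose and 1 fell. The regions 27 kb and 19 kb upstream opened, the one 1 kb upstream opened slightly, and the one 3 kb downstream closed. Over all regions, limma called 17.7% higher and 9.23% lower in MC. With LPS, 0 of the 6 rose and 1 fell, against 15.5% and 10.3% of all regions. At an unadjusted p under 0.05, 1 region was higher with LPS, and limma with voom also called 0 higher. With polyI:C, 2 rose and 0 fell, against 19% and 14.2%, and 0 were lower at an unadjusted p under 0.05 or with voom. With MP as 1 sample 1 of these 2 was left, against 14.3% and 8.28%. With TNF, limma called 0 of the 6 in either direction, against 6.15% and 0.686%, and voom also called 0. At an unadjusted p under 0.05, 0 were higher and 1 was lower with TNF. All of these comparisons share the MM libraries.

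The region 19 kb upstream was almost closed in medium cells and opened with CpG. MM had 16 and 6 reads there, or 1.77 and 1.32 log2 CPM, against 58 and 72 reads in MC, at 3.65 and 3.81. The rise was 2.18 ± 0.27 (limma adjusted p = 4.23e-08). PolyI:C alone left it at 1.38 and 1.68, a difference of -0.01 ± 0.27. LPS alone gave 2.42 and 2.06, both above medium, but the difference of 0.70 ± 0.27 did not pass (limma adjusted p = 0.0542). TNF alone gave 2.16 and 1.52, which overlapped medium.

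The groups that began with CpG were also above medium here. The CL libraries stood at 3.97 and 4.02 and the CT libraries at 3.22 and 2.86. Both groups lay above MM, by 2.45 ± 0.27 (limma adjusted p = 2.02e-09) and 1.49 ± 0.27 (limma adjusted p = 4.06e-05). The CT difference was 0.88 with quantile normalization. After polyI:C the values were 2.64 and 2.94 in PL and 2.33 and 2.08 in PT. PL was above MM by 1.24 ± 0.27 (limma adjusted p = 0.00029), but by 0.50 with quantile normalization (adjusted p = 0.138). PT was 0.66 ± 0.27 above MM and was not called (limma adjusted p = 0.0514).

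The region 27 kb upstream responded to CpG and to polyI:C given alone. MM stood at 2.51 and 2.71, MC at 4.10 and 3.90, and MP at 3.81 and 3.56. The rises were 1.39 ± 0.27 in MC (limma adjusted p = 9.99e-05) and 1.07 ± 0.27 in MP (limma adjusted p = 0.00168, or 0.0183 with MP as 1 sample). ML, at 3.20 and 3.02, lay 0.50 ± 0.27 above MM and was not called (limma adjusted p = 0.174). The groups with 2 stimuli stood at 3.21 and 3.38 in CL, 2.59 and 2.71 in PL, 3.25 and 2.86 in CT, and 1.93 and 3.18 in PT, whose libraries were the farthest apart (SD 0.88). Of these, CL alone was called against MM, at 0.68 ± 0.27 (limma adjusted p = 0.0409). That call was lost with either MM or either CL library left out, at differences of 0.58 to 0.79 and adjusted p of 0.0725 to 0.196, and with quantile normalization (0.41, adjusted p = 0.272), scaling to one median (0.60, adjusted p = 0.0726) or no variance trend (adjusted p = 0.0711).

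The region 22 kb upstream lay between these 2 and differed little. Its 18 libraries ran from 4.24 to 4.84, on 72 to 134 reads, and its group means spanned 0.28. No comparison called it, and each pair of neighbouring groups in order of level overlapped.

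Near the start site, the region 1 kb upstream stood at 3.97 and 4.05 in MM and at 4.74 and 4.38 in MC. The rise of 0.55 ± 0.18 passed (limma adjusted p = 0.0222), but not without MM replicate 1 (0.51, adjusted p = 0.117), MM replicate 2 (0.59, adjusted p = 0.068) or MC replicate 1 (0.37, adjusted p = 0.282). PL was the lowest group, at 3.57 and 3.43, which was -0.51 ± 0.18 from MM (limma adjusted p = 0.0242). This call was lost without MM replicate 1 (-0.55, adjusted p = 0.0621), MM replicate 2 (-0.47, adjusted p = 0.119) or PL replicate 2 (-0.44, adjusted p = 0.143). The other 6 groups had means from 3.81 in PT to 4.45 in CL and were not called against MM.

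Downstream of the gene, the region 3 kb away was most open in medium cells and lower in each of the 5 groups given CpG or LPS. MM stood at 3.92 and 4.30. MC stood at 3.21 and 2.94, CL at 2.64 and 2.85, and CT at 2.74 and 2.79. The falls were -1.03 ± 0.21 in MC (limma adjusted p = 0.000178), -1.37 ± 0.21 in CL (limma adjusted p = 1.38e-06) and -1.35 ± 0.21 in CT (limma adjusted p = 2.92e-06). ML, at 3.25 and 3.38, fell by 0.79 (SE 0.21, limma adjusted p = 0.00428), and PL, at 3.46 and 3.17, fell by 0.80 (SE 0.21, limma adjusted p = 0.00209). The ML call was lost without MM replicate 2 (-0.60, adjusted p = 0.107) or ML replicate 1 (-0.73, adjusted p = 0.0553), and the PL call without MM replicate 2 (-0.61, adjusted p = 0.0662). MP, MT and PT, with means of 3.77, 3.64 and 3.72, were not called.

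The region 11 kb downstream was most open in PT and PL, the groups that had received polyI:C first. The MP libraries overlapped those of CT, which had no polyI:C. MM stood at 2.16 and 2.41, MC at 2.24 and 2.44, and ML at 2.42 and 2.24, so CpG and LPS alone overlapped medium. PT reached 4.05 and 3.63 and PL 3.34 and 3.65. They exceeded MM by 1.56 ± 0.26 (limma adjusted p = 6.35e-06) and 1.21 ± 0.26 (limma adjusted p = 0.00019), and the PT call held with either PT library left out. MP, at 2.68 and 3.27, rose by 0.69 ± 0.26 (limma adjusted p = 0.0333), which did not pass with MP as 1 sample (adjusted p = 0.107), without MP replicate 2 (0.40, adjusted p = 0.399), without MM replicate 1 (0.57, adjusted p = 0.188), without MM replicate 2 (0.82, adjusted p = 0.0522) or with quantile normalization (0.42, adjusted p = 0.235). MT, at 3.08 and 2.49, and CL, at 2.95 and 2.68, were not called. CT, at 2.87 and 3.02, was 0.66 ± 0.26 above MM (limma adjusted p = 0.0482). This call was lost under 17 of 27 alternative settings, with values from 0.31 to 0.78, among them either MM library or either CT library left out.

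In the groups with 2 stimuli, counts against MM were 2 higher and 1 lower of 6 in CL, where 22.3% of all regions were higher and 15.3% lower. They were 2 and 2 in PL (23.7% and 17.4%), 2 and 1 in CT (18.7% and 10.9%), and 1 and 0 in PT (21.7% and 17.9%), where 0 were lower at an unadjusted p under 0.05 or with voom. Over all 8 groups against MM, the 6 regions gave 12 higher and 6 lower calls in 48 tests. The shares of all regions in these groups ran from 6.15% (MT) to 23.7% (PL) higher. They ran from 0.686% (MT) to 17.9% (PT) lower. Without MM replicate 2 fewer calls were made, both at the 6 regions and over all regions.

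Prior CpG or polyI:C was then compared with prior medium under the same second stimulus. Before LPS, CpG raised 1 of the 6 regions and lowered 0, against 10.5% and 6.42% of all regions. At an unadjusted p under 0.05 it lowered 1, and voom called 0 lower. The region raised was the one 19 kb upstream, by 1.75 ± 0.27 (limma adjusted p = 1.98e-05). The region 3 kb downstream was -0.57 ± 0.21 from ML and was not called (limma adjusted p = 0.0519). Before TNF, CpG raised the 19 kb region again, by 1.20 ± 0.27 (limma adjusted p = 0.00148), and lowered the one 3 kb downstream by 0.88 (SE 0.21, limma adjusted p = 0.00244). These were 1 higher and 1 lower of 6, against 11.2% and 6.18%. Without MT replicate 2 the first was 0.88 (adjusted p = 0.0763), and without MT replicate 1 the second was -0.74 (adjusted p = 0.0544).

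PolyI:C as first stimulus raised the region 11 kb downstream with either second stimulus. The rise was 1.16 ± 0.26 before LPS (limma adjusted p = 0.000851) and 1.05 ± 0.26 before TNF (limma adjusted p = 0.00197). Without MT replicate 2 the second was 0.76 (adjusted p = 0.0694). Before LPS it also lowered the region 1 kb upstream, by 0.67 (SE 0.18, limma adjusted p = 0.00671), a call lost without ML replicate 1 (-0.50, adjusted p = 0.154) or PL replicate 2 (-0.60, adjusted p = 0.0744). The counts were 1 higher and 1 lower of 6 in PL against ML, where 14.3% and 9.98% of all regions were called. They were 1 and 0 in PT against MT, where 15.6% and 13.4% were called and 0 of the 6 were lower at an unadjusted p under 0.05 or with voom. The 19 kb region differed by 0.55 ± 0.27 in PL and 0.36 ± 0.27 in PT and was not called.

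**Figure D4:**
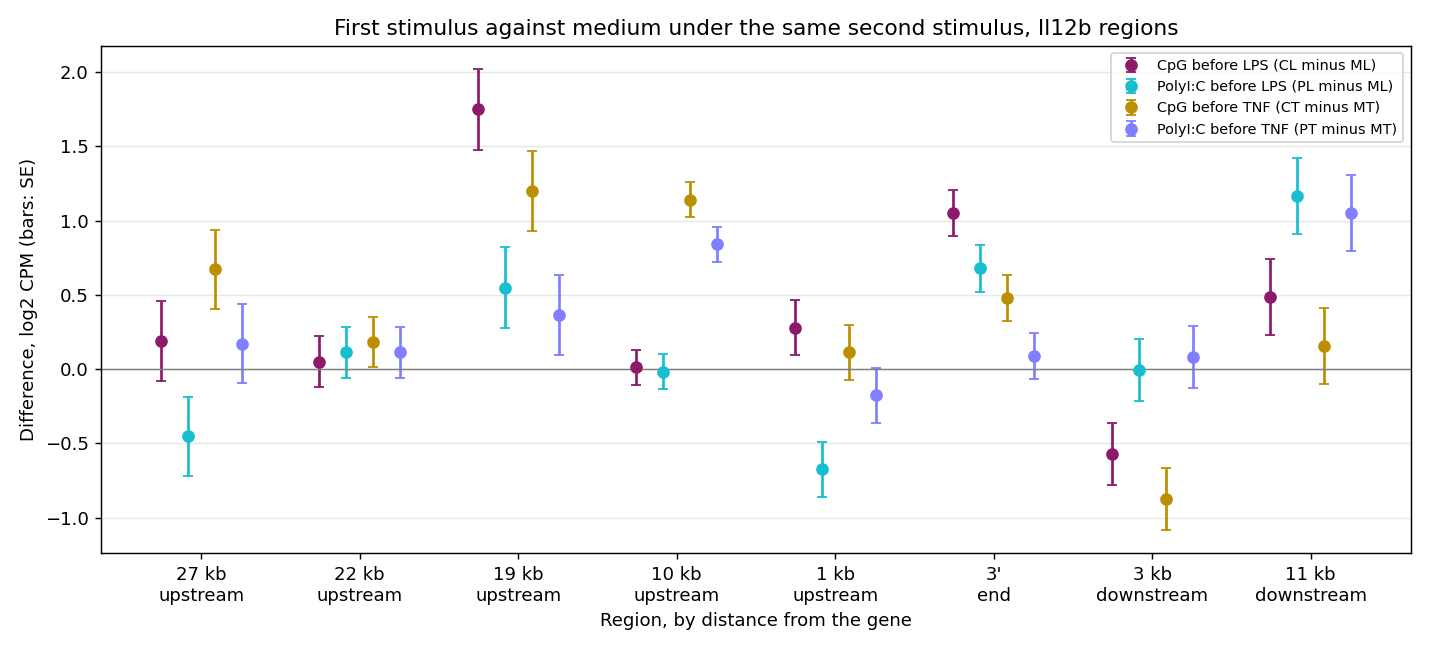
Difference in log2 CPM (points, bars are SE, n = 2 libraries a group) between a first stimulus and medium under the same second stimulus, at the 8 Il12b regions. CpG stands highest at 19 kb upstream (1.75 before LPS) and polyI:C at 11 kb downstream (1.16 before LPS). The regions 10 kb upstream and at the 3' end led to the choice of the locus and are shown as values only, without a test. At 10 kb upstream CpG and polyI:C stand at 1.14 and 0.84 before TNF and at 0.01 and -0.02 before LPS.

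The 2 regions that led to the choice of the locus are set beside these as values only. At 10 kb upstream, CL and PL differed from ML by 0.01 ± 0.12 and -0.02 ± 0.12, and their libraries overlapped those of ML. Under TNF the same first stimuli gave 1.14 ± 0.12 in CT and 0.84 ± 0.12 in PT, with no overlap with MT. At the 3' end CL and PL lay above ML by 1.05 ± 0.16 and 0.68 ± 0.16, and CT and PT lay above MT by 0.48 ± 0.16 and 0.09 ± 0.16. PT overlapped MT there.

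CpG and polyI:C as first stimulus were also compared directly. Before LPS, 2 of the 6 regions were higher after CpG and 0 lower, against 4.63% and 4.81% of all regions. They were the 19 kb region, by 1.20 ± 0.27 (limma adjusted p = 0.00368), and the 1 kb region, by 0.95 ± 0.18 (limma adjusted p = 0.000842). Without PL replicate 1 the 19 kb difference was 1.05 (adjusted p = 0.0664). At an unadjusted p under 0.05, 2 regions were lower after CpG, and voom called 0 lower. Before TNF, 1 was higher after CpG and 2 lower, against 18% and 15.4%.

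In this comparison under TNF the 19 kb region was higher after CpG, by 0.83 ± 0.27 (limma adjusted p = 0.0169). The regions 3 kb and 11 kb downstream were higher after polyI:C, at CpG minus polyI:C differences of -0.96 ± 0.21 (limma adjusted p = 0.000647) and -0.90 ± 0.26 (limma adjusted p = 0.00676). The 19 kb call was lost without CT replicate 1 (0.65, adjusted p = 0.142), without PT replicate 2 (0.71, adjusted p = 0.13) or with only the compared groups in the fit (0.83, adjusted p = 0.0639). The 11 kb call was lost without PT replicate 1 (-0.69, adjusted p = 0.0648).

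Whether a first stimulus acted differently under LPS and under TNF was tested as the difference of the 2 effects. None of the 6 regions was called for CpG or for polyI:C with limma or with voom, and 0 had an unadjusted p under 0.05. Over all regions 0.0204% were called higher and 0.297% lower for CpG, and 0.00% in either direction for polyI:C. These shares depend on the spread that the fit shares over the groups. With both PT libraries left out, 297 regions were higher and 810 lower for CpG, against 11 and 160. The polyI:C contrast needs the PT libraries, which were the least alike pair. A region not called here is thus not shown to lack a difference. At the 19 kb region the CpG effect was 0.55 ± 0.38 larger under LPS, which did not pass the threshold.

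Just inside the limit of the rule, the farthest member was the region 27 kb upstream. Just outside it, a region 50.2 kb upstream (44349605 to 44350106) had group means of 1.95 in MM, 3.16 in MC, 2.57 in ML, 2.19 in MP and 1.97 in MT, and of 3.70 in CL, 2.98 in PL, 2.96 in CT and 2.85 in PT. On the other side the nearest region outside (44437725 to 44438226) lay 23.3 kb from Il12b and closer to Ublcp1, a gene for a proteasome phosphatase. Its group means ran only from 4.89 in CL to 5.35 in PT.

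Genes around Il12b were examined as a list of the 4 other protein-coding genes within 500 kb, Adra1b, Ublcp1, Rnf145 and Ebf1, with 23 regions. With CpG alone 2 rose and 2 fell, with LPS 3 and 5, and with polyI:C 7 and 1. With MP as 1 sample 6 rose and the fall was lost. With TNF 2 rose. Of all regions 17.7% rose and 9.23% fell with CpG, 15.5% and 10.3% with LPS, 19% and 14.2% with polyI:C, and 6.15% rose with TNF. The median difference was 0.06 in MC and -0.34 in ML, against 0.01 and -0.00 over all regions. In PT 12 rose, against 21.7% of all regions, with a median of 0.49. The region with the smallest p in MC and in ML lay between genes and was assigned to Rnf145, which encodes a ubiquitin ligase of the sterol pathway (44504125 to 44504626). It rose by 3.41 ± 0.13 in MC (limma adjusted p = 5.87e-22), 2.80 ± 0.13 in ML (limma adjusted p = 6.62e-19) and 1.36 ± 0.13 in MT (limma adjusted p = 5.17e-10).

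The partners of p40 and the related subunits form the first group of the pathway. Il12a, Il23a and Il27 had 9 regions together, and Ebi3 had none. Of the 9, CpG raised 7, LPS 8, polyI:C 6 and TNF 2, and polyI:C lowered 1, a call lost with MP as 1 sample. Over all regions 17.7%, 15.5%, 19% and 6.15% rose, and 14.2% fell with polyI:C. The median differences of the 9 were 1.02, 1.03, 1.19 and 0.40, against 0.01, -0.00, -0.01 and -0.01 over all regions. Inside Il12a, the gene of the p35 partner (chromosome 3, 68693367 to 68693868), a region rose by 2.69 ± 0.21 in MC (limma adjusted p = 5.15e-13) and 2.01 ± 0.21 in ML (limma adjusted p = 1.14e-09). In MP it rose by 1.19 ± 0.21 (limma adjusted p = 2.00e-05). In MT it was 0.40 ± 0.21 above MM and was not called (limma adjusted p = 0.326). CpG before TNF raised it by 1.96 ± 0.21 (limma adjusted p = 5.15e-09), and CpG before LPS by 0.67 ± 0.21 (limma adjusted p = 0.0244). All 5 regions of Il27, a subunit gene of IL-27, rose with CpG, with LPS and with polyI:C, and 2 of them with TNF. The single region of Il23a was called higher with LPS and not with CpG, polyI:C or TNF, differences between stimuli that were not tested.

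Receptor genes come next. Among 16 regions of Il12rb1, Il12rb2, Il23r, Il27ra and Il6st, CpG raised 2 and lowered 5, LPS 1 and 3, polyI:C 3 and 5 (1 and 1 with MP as 1 sample), and TNF raised 1. Over all regions the shares were 17.7% and 9.23% with CpG, 15.5% and 10.3% with LPS, 19% and 14.2% with polyI:C, and 6.15% higher with TNF. The share of receptor regions raised by CpG, LPS, polyI:C and TNF was thus near or below that of all regions. The share lowered was above that of all regions with CpG, LPS and polyI:C. With MP as 1 sample it was not above for polyI:C, where 8.28% of all regions were lower. All 3 regions of Il23r, the receptor chain specific for IL-23, fell with CpG and 2 of them with LPS. Inside Il6st, which encodes gp130, lay the receptor region with the smallest p in MC and in ML (chromosome 13, 112466545 to 112467046). It rose by 1.89 ± 0.25 in MC (limma adjusted p = 1.96e-07) and 1.56 ± 0.25 in ML (limma adjusted p = 9.24e-06). It also rose by 1.35 ± 0.25 in MP (limma adjusted p = 5.23e-05) and 1.07 ± 0.25 in MT (limma adjusted p = 0.00443). The 8 regions of Il6st went both ways, with 2 higher and 2 lower with CpG, 1 and 1 with LPS, and 1 and 3 with polyI:C.

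Factors known to act on Il12b in macrophages, from Rel, Rela and Nfkb1 to Irf8, Cebpb and the inhibitory cytokine Il10, made 13 genes with 121 regions. CpG raised 59 and lowered 3, LPS 54 and 2, polyI:C 50 and 6 (37 and 4 with MP as 1 sample), and TNF 15 and 2. The shares of all regions were 17.7% and 9.23% with CpG, 15.5% and 10.3% with LPS, 19% and 14.2% with polyI:C, and 6.15% and 0.686% with TNF. The median differences were 0.42, 0.44, 0.32 and 0.15, against 0.01, -0.00, -0.01 and -0.01 over all regions. All 8 regions of Batf, a partner of IRF factors, rose with CpG, and 13 of 21 rose at Nfkb1. Of the 3 regions of Rela, which encodes the p65 subunit, 2 rose with LPS. Of the 8 of Rel, which encodes c-Rel, 3 rose with CpG and 2 with LPS. Before TNF, prior CpG raised 39 of the 121 and lowered 3, where 11.2% and 6.18% of all regions were called. Prior polyI:C raised 15 and lowered 11, where 15.6% and 13.4% were called. The numbers before LPS were 22 and 5 for CpG, against 10.5% and 6.42%, and 21 and 12 for polyI:C, against 14.3% and 9.98%.

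Regions elsewhere in the genome were ranked by Pearson's r with the 2 leading Il12b regions over the 9 group means, among 16865 regions whose group means span at least 1. These r values are descriptions over points that come from the same libraries. Closest to the 10 kb region were regions near Jdp2 (r = 0.978), an AP-1 repressor gene, and near the nucleoside transporter gene Slc28a3 (r = 0.978). Inside Asrgl1 (r = 0.972), Nfkb1 (r = 0.972, chromosome 3, 135670542 to 135671043), Krt24 (r = 0.970) and Foxn3 (r = 0.966) lay the next 4. The Foxn3 region had group means of 1.93 in MM, 5.52 in MC, 4.85 in ML, 4.29 in MP and 3.03 in MT, a wider span (3.59) than at Il12b (2.11).

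Closest to the 3' end were regions inside Usp38 (r = 0.937), Bcl2 (r = 0.932), Bora (r = 0.919) and Wdfy3 (r = 0.917), one near Vcam1 (r = 0.913) and one inside Zfp821 (r = 0.913). Inside Bcl2, which encodes an inhibitor of apoptosis, the means were 3.36 in MM, 2.64 in ML, 2.50 in MP and 2.62 in MT, against 3.61 in CL and 3.32 in PL. Within the locus, the 10 kb region had r = 0.752 with the 19 kb region, 0.640 with the 27 kb region and 0.048 with the 3' end over the 9 means. The 3 kb downstream region had r = -0.888 with the 19 kb region.

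**Figure D5:**
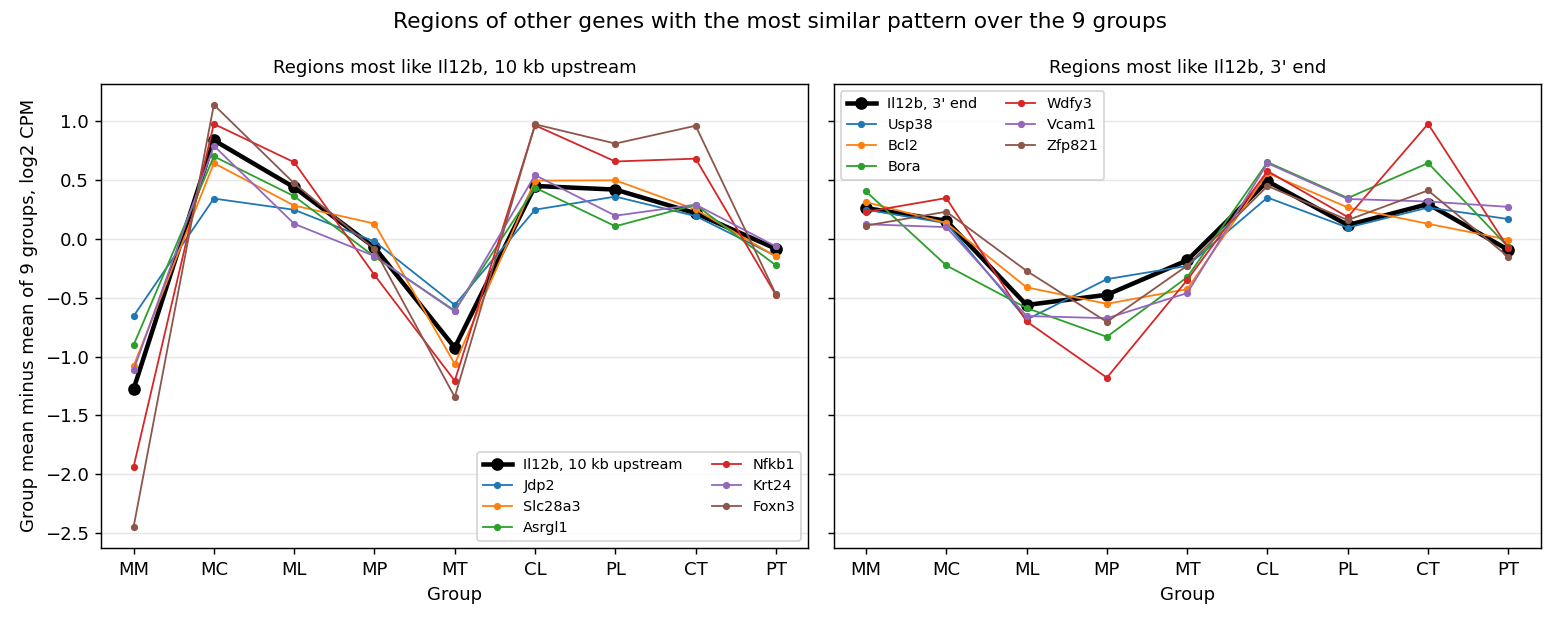
Group means minus the mean of the 9 groups (log2 CPM) for the Il12b regions 10 kb upstream (left) and at the 3' end (right), drawn in black, and for the 6 regions of other genes with the highest Pearson r to each. On the left the curves are low in MM and MT, and on the right they are low in ML and MP.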

How the data were processed

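ATAC-seq was done on 18 libraries of 9 treatments, per the labels. The submitters' processing notes name build mm10, featureCounts, MACS3 3.0.0b1, Picard, SAMtools 1.9 and Bowtie2 2.2.5, without settings. The deposited file holds log2 CPM that the authors computed per region, and how regions were merged is not given in the sources used here. All values (100%) return whole reads within 0.01 with a mean prior of 3 reads.

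Regions were assigned by midpoint to the nearest RefSeq protein-coding gene body. Limma 3.58.1 (R 4.3.3) fitted 9 group means with a variance trend (9 residual and 29.1 prior degrees of freedom), without a filter, in 16 contrasts, each adjusted over 53796 regions by Benjamini and Hochberg. It was tested on simulated data for MC against MM only, with the same spread in every group, and the outcome is not reported here. That simulation does not cover the other contrasts or the wider spread of the PT libraries. Replicate numbers did not pair the samples. Members, lists, motifs and naming rules (all regions of the locus, the region with the smallest p per list in MC and ML, the 6 most similar regions) were chosen with earlier results of these data known. No genome sequence was used here, and 2 of the gene lists are not reported here. Alternatives changed 1 choice at a time: quantile or median scaling, log2(CPM + 1), a filter at the 25th percentile, no trend, only the compared groups, a replicate block, each library left out, voom on whole reads, MP as 1 sample and, added after seeing the data, a fit without PT.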

Additional observations from a re-analysis of the deposited data

How the results depend on the processing

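Of 29 calls at the 6 regions chosen by position over the 16 contrasts, 14 held under every alternative that tested them, 15 were lost under at least 1 and 0 changed direction. The regions 27 kb and 19 kb upstream and 11 kb downstream lie below the 25th percentile of mean level and could not be tested under that filter, and a fit without PT has no PT contrasts. With quantile normalization the comparisons of CpG with polyI:C gave 4 lower calls at these regions, not 2, and the 10 kb minus 3' end difference was -0.029 in MT and 0.654 in CT. Leaving out 1 library, calls at the 6 regions against MM ranged from 8 to 14 higher and 3 to 6 lower (8 and 3 without MM replicate 2), those for a first stimulus from 2 (without MT replicate 2) to 6 higher (without PT replicate 1) and 1 (without ML replicate 1, MT replicate 1 or PL replicate 2) to 3 lower, those for CpG against polyI:C from 2 to 4 higher and 1 (without PT replicate 1) to 2 lower, and interaction calls at the 6 regions stayed at 0. The same-numbered libraries of 2 groups deviated together with r from -0.36 to 0.24 over 36 pairs of groups (median -0.00), and with a replicate block 28 of the 29 calls held. The locus held 7 regions with a 25 kb window, 10 with 100 kb and 8 by nearest gene end.

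In the pathway lists, quantile normalization gave 0 subunit and 0 receptor regions higher in MT, 1 receptor region higher in MC and 1 in MP, and 8 regulator regions higher and 0 lower in MT. Of all 53796 regions, that setting called 1838 higher and 145 lower in MT, against 3309 and 369 in the main fit. It called 6711 higher in MC and 7967 in MP, against 9510 and 10223. Within 10 kb of a gene body there were 0 subunit regions lower in MP, 1 receptor region higher and 3 lower in MC, 3 lower in MP, 1 regulator region lower in MC, 1 in ML and 30 higher in MP. The 10 kb limit leaves regions out of the lists. The number left is not given, so these counts cannot be set against a share. With MP as 1 sample, 0 subunit regions were lower and 1 receptor region was higher and 1 lower. Few reads at the 19 kb region (6 to 78) limit small differences there.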
